A study of Homo sapiens with 16 samples.

Results

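The amino acid response of quiescent U2OS cells was examined through 41 genes, all of which were among the 59081 genes of the count table and among the 20446 that passed the filter on low counts. The members were given as a list of gene symbols. They comprise 9 regulators (ATF4, ATF3, ATF5, DDIT3, CEBPB, CEBPG, NUPR1, TRIB3 and PPP1R15A), 5 stress effectors (DDIT4, SESN2, CHAC1, VLDLR and STC2), 8 enzymes of amino acid and one-carbon synthesis (ASNS, PHGDH, PSAT1, PSPH, SHMT2, MTHFD2, ALDH18A1 and PYCR1), 6 transporter genes (SLC7A5, SLC3A2, SLC7A1, SLC38A2, SLC1A5 and SLC1A4) and 13 cytosolic aminoacyl-tRNA synthetases (AARS1, CARS1, EPRS1, GARS1, IARS1, LARS1, MARS1, NARS1, SARS1, TARS1, VARS1, WARS1 and YARS1). U2OS is a human osteosarcoma cell line. Confluent cells were kept for 48 h without serum and, for the last 24 h, were given harmine hydrochloride at 10 µM or INDY at 25 µM. Mock-treated cells had the vehicle alone, water for harmine and DMSO for INDY. Harmine and INDY both inhibit DYRK1A, a kinase that promotes assembly of the DREAM repressor complex, and the study used them to ask what happens to DREAM-repressed genes in human cells. Each of the 4 groups had 4 libraries and no vehicle library was shared between the compounds. The doses and vehicles differ, so a difference between the compounds' effects is one between these treatments as given. The sources used here do not say that replicates came from separate cultures. The p-values therefore rest on library-to-library spread, part or all of which may be technical.

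Cells that run short of an amino acid accumulate uncharged tRNA, which activates the kinase GCN2. GCN2 phosphorylates the translation initiation factor eIF2 on its alpha subunit, which lowers most protein synthesis but raises translation of the ATF4 mRNA. The ATF4 protein, paired with C/EBP family proteins, binds C/EBP-ATF response elements (core TGATGNAA, where N is any base) near genes that make, import and charge amino acids. Other kinases act on eIF2 in endoplasmic reticulum stress, viral infection and haem shortage. Only mRNA was measured here, so ATF4 protein and eIF2 phosphorylation are outside these data.

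The response element core was searched in a single RefSeq promoter of each member that had an entry, on GRCh38.p14. The window ran from 250 bases before to 50 bases after the start of that entry, and both strands were searched. This start can lie well inside the annotated gene, as in SLC3A2 and MARS1, and other starts of a gene were not searched. Promoters of 34 members were matched by symbol, and NUPR1, PYCR1, VARS1, YARS1, PSPH, SHMT2 and LARS1 had no entry. TGATGNAA occurred in 11 of the 34 promoters (32.4%), against 1264 of 34796 RefSeq promoters of the same length (3.63%) and 259 of the 12817 that belonged to genes tested here (2.02%). The palindrome TGACGTCA, the core of CREB and ATF sites, occurred in 1 of 34 (2.94%, PPP1R15A) and in 1.84% of all promoters. An exact match to one motif is never a match to the other at the same position. The 11 matches are shown because this core is the element that ATF4 is known to bind. Each sequence runs 5′ to 3′ on the gene's strand, with the match in capitals (TGATGNAA, or its complement TTNCATCA where the core lies on the other strand) and up to 11 bases on each side.
ASNS, chr7:97872458-97872487, minus strand: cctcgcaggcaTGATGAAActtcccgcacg
ATF3, chr1:212565205-212565234, plus strand: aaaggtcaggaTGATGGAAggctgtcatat
CHAC1, chr15:40953251-40953280, plus strand: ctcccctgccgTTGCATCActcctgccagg
SLC3A2, chr11:62881725-62881748, plus strand: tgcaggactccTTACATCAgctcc
SLC7A1, chr13:29595663-29595692, minus strand: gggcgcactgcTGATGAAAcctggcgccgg
AARS1, chr16:70289675-70289704, minus strand: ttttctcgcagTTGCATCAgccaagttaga
CARS1, chr11:3057407-3057436, minus strand: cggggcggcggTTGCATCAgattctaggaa
IARS1, chr9:92293692-92293721, minus strand: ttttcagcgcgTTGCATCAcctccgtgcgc
MARS1, chr12:57488053-57488082, plus strand: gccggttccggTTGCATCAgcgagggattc
NARS1, chr18:57621804-57621833, minus strand: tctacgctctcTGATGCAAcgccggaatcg
TARS1, chr5:33440956-33440985, plus strand: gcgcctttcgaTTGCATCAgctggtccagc

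Of the 10 synthetase genes with a promoter entry, 6 held the core, and all 6 had the form TGATGCAA, which CHAC1 shared. The first base of the match lay 68 bases before the RefSeq start in ASNS and 191 before it in ATF3. It lay 209 bases before the start in CHAC1 and 187 before it in AARS1. In the 5 other synthetase genes it lay between 13 bases before the start (IARS1) and base 15 after it (NARS1). SLC3A2 and SLC7A1 had it at bases 38 and 8, counting the start as base 1. A match is a description of the letters and not a shown binding site.

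Sequencing gave 44301910 to 65889667 estimated counts per library. Normalization factors were 0.9825 to 1.0218. Values below are in CPM, a gene's counts set against the library's total, after TMM scaling, which corrects totals for composition. In bulk libraries a CPM value cannot tell fewer cells with an mRNA from less of it per cell. Of 8 osteoblast and mesenchymal markers 7 were above 1 CPM in every group (COL1A2 was at most 0.199 CPM). Their summed level was 3630 to 3720 CPM with harmine against 3020 to 3220 with water, and 3340 to 3750 with INDY against 3240 to 3450 with DMSO. These sums are mostly VIM, which rose with both compounds. The other 6 markers above 1 CPM (RUNX2, COL1A1, SPARC, ALPL, CDH2 and THY1) all fell with INDY, by log2 fold changes of -0.36 (COL1A1) to -2.29 (ALPL), while with harmine 3 of them rose and 3 fell. Of 5 epithelial markers KRT18 and EPCAM were above 1 CPM in all groups. The 5 blood markers summed to at most 0.869 CPM, except with INDY, where they reached 1.13 to 2.34 CPM, mostly CD14. The 3 endothelial markers (PECAM1, CDH5 and VWF) summed to 4.88 to 5.86 CPM with harmine and 6.39 to 7.37 with water. With INDY they summed to 2.6 to 3.66 CPM and with DMSO to 5.01 to 5.87. The part of these markers in the results was not tested. Pairs of libraries stood apart within their groups on the principal components of all genes. INDY replicates 1 and 3 lay at 95.97 and 105.42 on the first component, against 80.12 and 85.1 for INDY replicates 2 and 4. On the third component water replicates 1 and 4 lay at 26.62 and 34.58, against 4.35 and 3.94 for water replicates 2 and 3. Where leaving these pairs out ended a member's call or moved a called value by over 1.5 times, the value without them is given.

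INDY lowered most of the 41 genes, while with harmine 23 of them did not pass the test. With INDY 9 members rose and 25 fell at an adjusted p under 0.01, that is 22.0% and 61.0% of the members, where 33.2% and 33.4% of all tested genes rose and fell. With harmine 6 rose and 12 fell (14.6% and 29.3%), where 24.9% and 22.8% of all tested genes did. The median log2 fold change of the members was -0.31 with INDY and -0.05 with harmine, against -0.008 and 0.0151 over all tested genes. Every INDY library lay on one side of every DMSO library for 32 members (78.0%, against 67.5% of all genes), and harmine and water libraries did not overlap for 23 (56.1%, against 55.1%). The share of members lowered by INDY was thus above that of all genes, and the share of members apart with harmine was near it. At a fold change of at least 1.5, INDY raised 3 members (7.32%) and lowered 11 (26.8%), beside 14.3% and 19.4% of all genes. Harmine raised 0 and lowered 4 members by that much (DDIT3, CHAC1, SLC38A2 and WARS1, 9.76%), beside 8.41% and 7.9% of all genes.

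**Figure D1:**
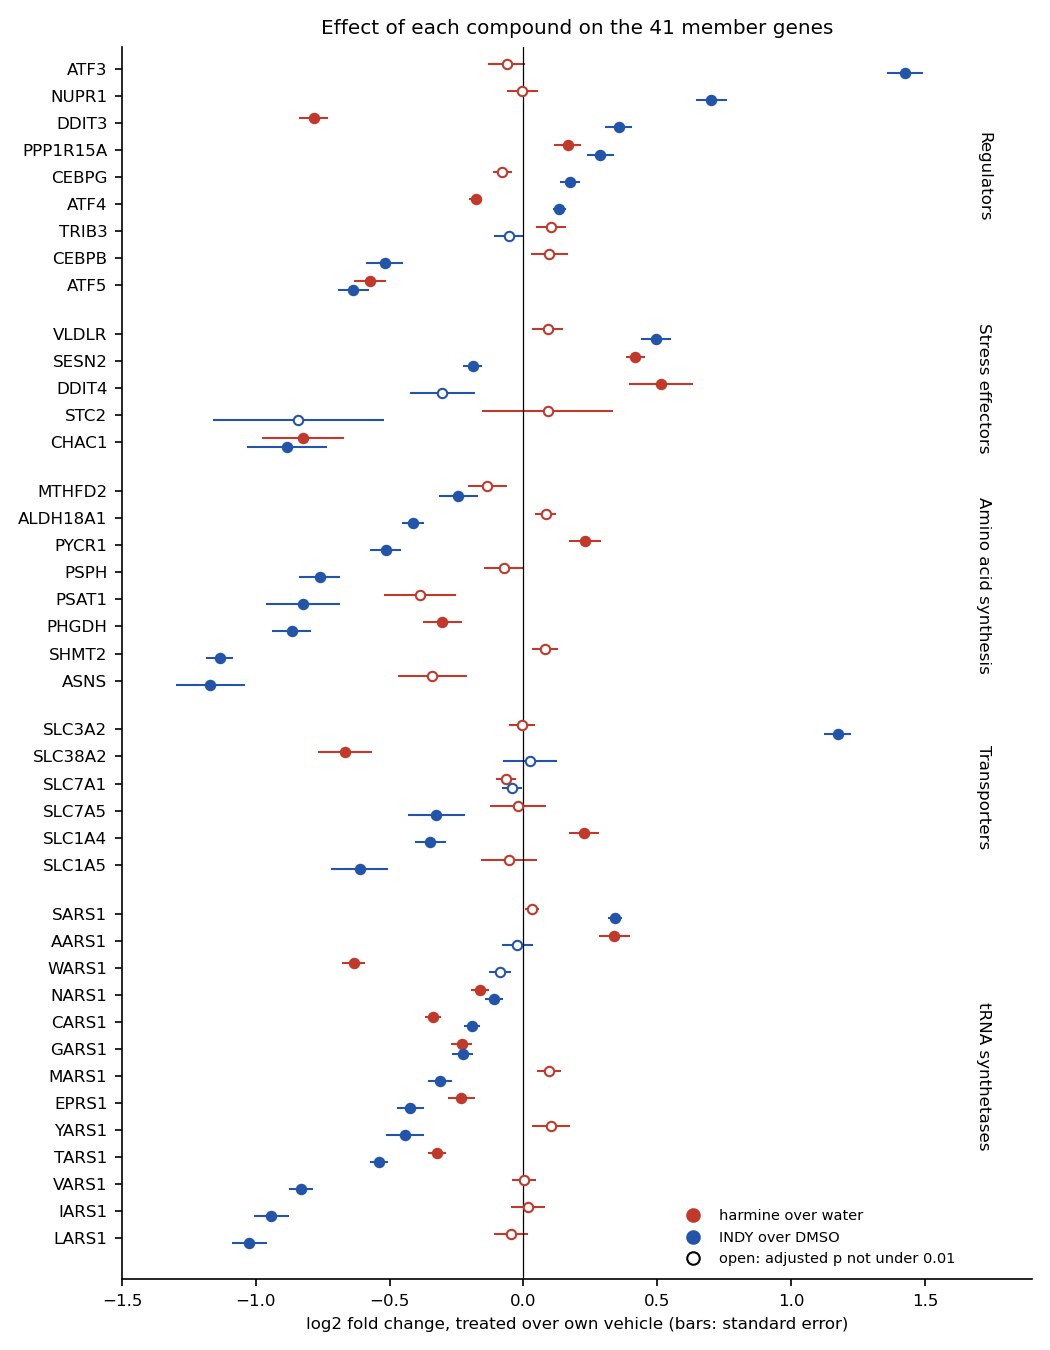
Log2 fold change of each of the 41 members with harmine over water (red) and INDY over DMSO (blue), grouped by role and ordered by the INDY value. Points are edgeR estimates from 4 libraries per group, bars are standard errors, and open points did not reach an adjusted p under 0.01. All 8 synthesis genes lie left of 0 with INDY, from -1.17 for ASNS to -0.24 for MTHFD2, while ATF3 (1.43) and SLC3A2 (1.17) lie farthest to the right.

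The transcription factors of the response did not move together. ATF4 mRNA (chr22:39519695-39522683), which encodes the factor the response is built on, was at 390, 403, 400 and 403 CPM in the harmine libraries, against 452, 455, 455 and 444 CPM with water. It was at 516, 517, 549 and 515 CPM in the INDY libraries, against 475, 472, 482 and 484 CPM with DMSO. Neither pair of groups overlapped, and both differences were small. The log2 fold change was -0.18 ± 0.03 (SE, adjusted p = 6.64e-06) with harmine and 0.13 ± 0.03 (adjusted p = 9.24e-05) with INDY, and the effects differed by -0.31 (adjusted p = 4.03e-07).

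ATF3 (chr1:212565334-212620777), a stress-induced factor of the same leucine-zipper family, had the largest rise among the members. It was at 52.6, 46.9, 60.3 and 48.4 CPM with INDY, against 20.0, 18.9, 19.8 and 18.8 CPM with DMSO. Harmine libraries held 19.3, 19.2, 16.7 and 19.1 CPM, against 20.0, 20.1, 18.1 and 19.5 CPM with water. The INDY libraries all lay far above the DMSO libraries, and the harmine libraries overlapped the water libraries. This is a 2.69-fold rise with INDY (log2 1.43 ± 0.07, adjusted p = 9.06e-13), against a log2 fold change of -0.06 ± 0.07 with harmine (adjusted p = 0.456).

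DDIT3, which encodes the factor CHOP, moved in opposite directions with the compounds. Its values were 8.06, 8.46, 9.4 and 8.74 CPM with harmine, against 14.5, 15.0, 15.6 and 14.7 CPM with water. With INDY they were 20.7, 23.4, 23.8 and 22.2 CPM, against 17.5, 18.0, 17.8 and 17.0 CPM with DMSO. All harmine libraries were below all water libraries and all INDY libraries above all DMSO libraries. The log2 fold changes were -0.78 ± 0.05 with harmine (adjusted p = 6.27e-10) and 0.36 ± 0.05 with INDY (adjusted p = 3.14e-06), a difference of -1.14 ± 0.07 (adjusted p = 2.39e-10). DDIT3 shares 31.6% of its exon bases with genes on the opposite strand, among them the member MARS1, and ATF5 and SLC1A5 share 22.1% and 23.8% of theirs. The library kit keeps strand, and whether the counting used it is not given in the sources used here.

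NUPR1, a small stress-induced chromatin protein, rose with INDY to 60.3 ± 5.37 CPM (SD, n = 4 libraries), against 37.1 ± 1.28 CPM with DMSO (log2 0.70, adjusted p = 2.2e-09). With harmine it was at 42.4 ± 1.83 CPM, against 42.6 ± 2.89 CPM with water. CEBPG, a dimer partner of ATF4, rose with INDY by a log2 fold change of 0.17 (adjusted p = 0.000235). CEBPB, its relative and another partner, fell with INDY by 0.52 on the log2 scale (adjusted p = 1.99e-06). ATF5, a factor related to ATF4, was lower with both compounds, at 7.03 ± 0.301 CPM with harmine against 10.5 ± 0.490 CPM with water, and at 6.70 ± 0.265 CPM with INDY against 10.4 ± 0.658 CPM with DMSO (log2 -0.57 and -0.64, adjusted p = 1.23e-07 and 1.28e-08).

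Of the 2 feedback genes, PPP1R15A encodes the phosphatase subunit GADD34, which removes the phosphate from eIF2. It rose with INDY to 95.5 ± 9.73 CPM, against 78.3 ± 1.77 CPM with DMSO (log2 0.29, adjusted p = 4.34e-05). It also passed with harmine (log2 0.17, adjusted p = 0.00894). That call was lost in 21 of the settings in which test, scaling, filter or libraries were changed. Among them was the one without water replicates 1 and 4 (log2 0.15). TRIB3, a pseudokinase that restrains ATF4, passed with neither compound. Its log2 fold changes were 0.10 ± 0.06 with harmine (adjusted p = 0.127) and -0.05 ± 0.06 with INDY (adjusted p = 0.406). Among the 9 regulators, 6 rose and 2 fell with INDY, and 1 rose and 3 fell with harmine. Of all tested genes, 33.2% rose and 33.4% fell with INDY, and 24.9% rose and 22.8% fell with harmine.

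**Figure D2:**
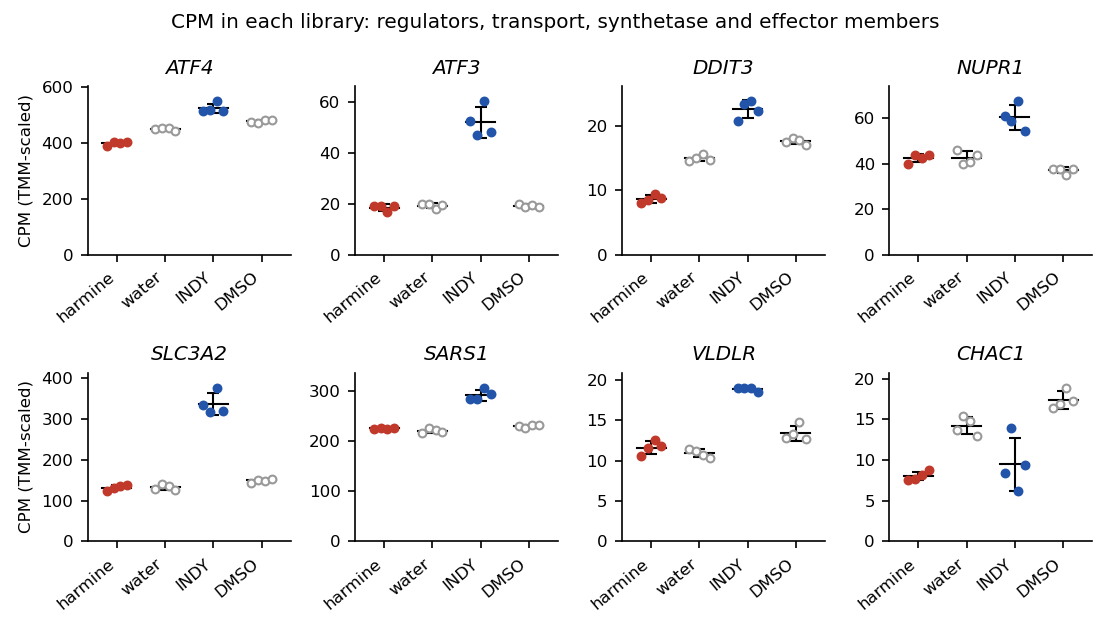
CPM of 8 members in each library of the 4 groups, each compound left of its vehicle, with a horizontal line at the mean, error bars of 1 SD (n = 4 libraries) and each axis starting at 0. ATF3, NUPR1, SLC3A2, SARS1 and VLDLR rise with INDY alone, DDIT3 falls with harmine and rises with INDY, and CHAC1 falls with both.

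CHAC1 (chr15:40952962-40956512), which degrades glutathione, fell with both compounds. It was at 7.53, 7.71, 8.22 and 8.74 CPM with harmine, against 13.8, 15.4, 14.8 and 13.0 CPM with water. With INDY it was at 8.38, 13.9, 6.17 and 9.38 CPM, against 16.4, 16.9, 18.9 and 17.3 CPM with DMSO. The treated libraries lay below their vehicles in every case, and INDY replicate 2 came nearest to them. The log2 fold changes were -0.82 ± 0.15 (adjusted p = 0.000144) with harmine and -0.88 ± 0.15 (adjusted p = 3.01e-05) with INDY. Without INDY replicates 1 and 3 the fall with INDY was -0.57 and still passed.

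SESN2, a leucine-binding inhibitor of the growth kinase complex mTORC1, went in opposite directions. It was at 90.2, 91.5, 91.8 and 96.9 CPM with harmine, against 69.3, 67.9, 71.0 and 69.0 CPM with water. INDY libraries held 60.7, 66.5, 68.2 and 62.2 CPM, against 71.9, 73.9, 74.2 and 73.9 CPM with DMSO. Groups did not overlap in either comparison (log2 0.42 ± 0.04, adjusted p = 9.86e-09, and -0.19 ± 0.04, adjusted p = 9.55e-05).

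DDIT4, another mTORC1 inhibitor, rose with harmine to 36.5 ± 1.26 CPM, against 25.6 ± 2.52 CPM with water (log2 0.51, adjusted p = 0.00124). Leaving out water replicates 1 and 4 took this call away (log2 0.40). With INDY it was at 23.5, 36.4, 20.5 and 30.8 CPM, against 32.4, 36.8, 34.2 and 33.5 CPM with DMSO, so that only INDY replicate 2 lay among the DMSO values (adjusted p = 0.0296). VLDLR, a lipoprotein receptor, rose with INDY to 18.9 ± 0.229 CPM, against 13.4 ± 0.927 CPM with DMSO (log2 0.50, adjusted p = 1.85e-07). STC2, a secreted glycoprotein, was low throughout. Its values were 0.824, 0.828, 0.51 and 0.717 CPM with harmine, against 0.622, 0.481, 0.626 and 0.982 CPM with water. They were 0.16, 0.245, 0.128 and 0.278 CPM with INDY, against 0.341, 0.239, 0.445 and 0.409 CPM with DMSO. Both pairs of groups overlapped, and STC2 passed with neither compound (log2 0.09 ± 0.25 and -0.84 ± 0.32, adjusted p = 0.775 and 0.0233).

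All 8 amino acid and one-carbon synthesis genes fell with INDY, with a median log2 fold change of -0.79. In the same fit of all 16 libraries 1 rose and 1 fell with harmine. Of all tested genes, 33.4% fell with INDY, and 24.9% rose and 22.8% fell with harmine. ASNS (chr7:97851677-97872542), the asparagine synthetase, was at 47.5, 69.4, 35.8 and 53.5 CPM with INDY, against 106, 119, 119 and 119 CPM with DMSO. Harmine libraries held 61.8, 71.0, 75.4 and 73.6 CPM, against 84.5, 97.2, 96.6 and 78.3 CPM with water. Every treated library was below every library of its vehicle, but the water values spread down to 78.3 CPM. ASNS fell 2.25-fold with INDY (log2 -1.17 ± 0.13, adjusted p = 1.52e-07), and the value with harmine did not pass in the fit of all 16 libraries (log2 -0.34 ± 0.13, adjusted p = 0.0293). It did pass in only the 8 harmine and water libraries, with no filter, and without INDY replicate 2 or INDY replicate 3. A gene on the same strand, AC079781.5, covers 49.3% of the ASNS exon bases, and averaged 9.39 CPM with INDY and 10.2 CPM with DMSO (adjusted p = 0.4).

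Serine synthesis from glycolysis takes 3 steps, made by PHGDH, PSAT1 and PSPH. PHGDH, the entry step, was at 88.7, 116, 82.5 and 97.2 CPM with INDY, against 171, 178, 178 and 173 CPM with DMSO. Under harmine its values were 113, 124, 126 and 129 CPM, against 148, 158, 158 and 143 CPM with water. The groups were apart with both compounds, and the fall was larger with INDY (log2 -0.87 ± 0.07, adjusted p = 3.21e-09) than with harmine (-0.30 ± 0.07, adjusted p = 0.00142), a difference of 0.56 ± 0.10 (adjusted p = 9.41e-05).

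PSAT1, the second enzyme, was at 16.5, 25.6, 12.6 and 20.3 CPM with INDY, against 33.2, 32.4, 33.3 and 33.4 CPM with DMSO. Harmine libraries held 18.7, 23.3, 24.4 and 23.8 CPM, against 29.8, 31.0, 30.4 and 26.9 CPM with water. Both treated groups were below their vehicles in every library, and only INDY passed in the fit of all 16 libraries (log2 -0.82 ± 0.14, adjusted p = 2.35e-05, against -0.39 ± 0.14, adjusted p = 0.0196). The fall with harmine passed in only the 8 harmine and water libraries, with no filter, and without INDY replicate 2 or INDY replicate 3. The value with INDY was -0.52 without INDY replicates 1 and 3, and still passed. PSPH, the last enzyme, fell with INDY to 20.0 ± 3.13 CPM, against 33.8 ± 1.84 CPM with DMSO (log2 -0.76, adjusted p = 4.76e-08), and had a log2 fold change of -0.07 ± 0.07 with harmine.

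SHMT2, which turns serine into glycine and a one-carbon unit in mitochondria, had the smallest adjusted p of the synthesis genes with INDY. It was at 116, 135, 106 and 125 CPM with INDY, against 266, 258, 270 and 264 CPM with DMSO. With harmine it was at 275, 293, 294 and 293 CPM, against 279, 271, 274 and 268 CPM with water. The INDY libraries were all far below the DMSO libraries, while harmine and water overlapped. The log2 fold change was -1.13 ± 0.05 with INDY (adjusted p = 5.07e-13) and 0.08 ± 0.05 with harmine (adjusted p = 0.174). MTHFD2, the next enzyme of mitochondrial folate metabolism, fell less with INDY (log2 -0.24, adjusted p = 0.00631). That call was lost in 8 of these settings. The log2 fold change of MTHFD2 was -0.15 without INDY replicate 3, -0.08 without INDY replicates 1 and 3 and -0.41 without INDY replicates 2 and 4.

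The proline pathway genes ALDH18A1 and PYCR1 fell with INDY too. PYCR1, which makes the last step to proline, was at 138, 167, 126 and 160 CPM with INDY, against 209, 210, 215 and 211 CPM with DMSO. With harmine it was at 257, 270, 269 and 277 CPM, against 232, 228, 226 and 230 CPM with water. The harmine libraries were above and the INDY libraries below their vehicles (log2 0.23 ± 0.06, adjusted p = 0.00239, and -0.52 ± 0.06, adjusted p = 2.3e-07). The rise of PYCR1 with harmine did not pass in 5 of the settings, among them the one without water replicates 1 and 4 (log2 0.24). ALDH18A1 fell with INDY by 0.41 on the log2 scale (adjusted p = 2.67e-08) and had a log2 fold change of 0.08 ± 0.04 with harmine (adjusted p = 0.0824).

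**Figure D3:**
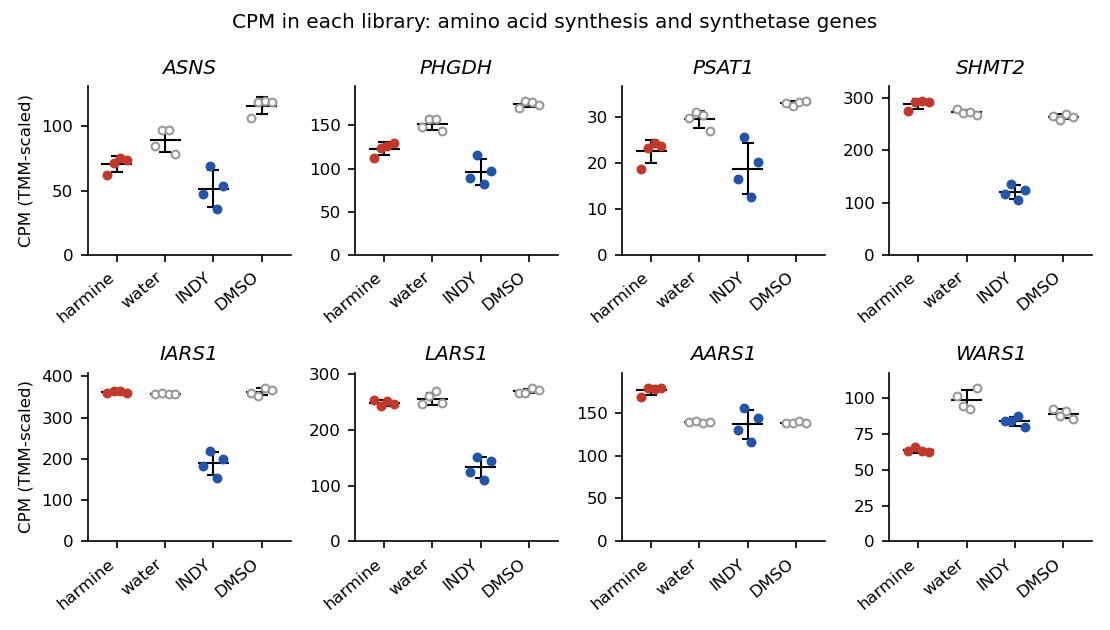
CPM of 4 synthesis genes (upper row) and 4 synthetase genes (lower row) in each library, each compound left of its vehicle, with the mean, 1 SD (n = 4 libraries) and axes that start at 0. INDY libraries lie below DMSO libraries for ASNS, PHGDH, PSAT1, SHMT2, IARS1 and LARS1, while WARS1 is low with harmine, and AARS1 is high with harmine and spread on both sides of DMSO with INDY.

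SLC3A2 (chr11:62856004-62888880) encodes the heavy chain that several amino acid exchangers need to reach the cell surface, and SLC7A5 its light chain LAT1, which carries leucine and other large neutral amino acids. SLC3A2 was at 334, 316, 375 and 319 CPM with INDY, against 144, 151, 149 and 153 CPM with DMSO. Harmine libraries held 123, 132, 135 and 138 CPM, against 128, 139, 136 and 126 CPM with water. The INDY libraries lay far above all others, and harmine overlapped water. SLC3A2 rose 2.26-fold with INDY (log2 1.17 ± 0.05, adjusted p = 2.19e-13) and had a log2 fold change of -0.005 ± 0.05 with harmine (adjusted p = 0.939).

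SLC7A5, by contrast, was at 187, 248, 148 and 217 CPM with INDY, against 239, 245, 261 and 256 CPM with DMSO. INDY replicate 2 lay among the DMSO libraries. Its fall (log2 -0.32 ± 0.11, adjusted p = 0.00948) was lost in 15 of the settings and shrank to -0.20 without INDY replicate 3 and to -0.10 without INDY replicates 1 and 3. It was -0.58 without INDY replicates 2 and 4. SLC1A5 (ASCT2), an exchanger of glutamine and other small neutral amino acids, fell with INDY to 151 ± 35.0 CPM, against 230 ± 4.30 CPM with DMSO (log2 -0.61, adjusted p = 3.77e-05), and its log2 fold change was -0.37 without INDY replicates 1 and 3, which still passed.

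SLC1A4 (ASCT1), which carries serine and alanine, went in opposite directions. It was at 60.3, 64.0, 67.5 and 64.6 CPM with harmine, against 54.4, 57.4, 55.7 and 51.8 CPM with water. With INDY it was at 46.9, 54.1, 41.8 and 48.9 CPM, against 60.2, 60.8, 61.6 and 61.0 CPM with DMSO. No treated library reached the range of its vehicle (log2 0.23 ± 0.06, adjusted p = 0.00194, and -0.35 ± 0.06, adjusted p = 1.81e-05). The rise with harmine did not pass in 3 of the settings, among them the one without water replicates 1 and 4 (log2 0.18).

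SLC38A2 (SNAT2), a sodium-coupled importer of small neutral amino acids, was at 368, 352, 356 and 344 CPM with harmine, against 623, 475, 476 and 680 CPM with water. All harmine libraries were lower, and the size of the fall (log2 -0.67 ± 0.10, adjusted p = 1.69e-05) depended on water replicates 1 and 4. Without these the log2 fold change was -0.42. With INDY its log2 fold change was 0.02 ± 0.10. SLC7A1 (CAT1), the carrier of arginine and lysine, passed with neither compound (log2 -0.07 ± 0.04 and -0.04 ± 0.04).

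Among the 13 cytosolic synthetases, which load amino acids onto their tRNAs, 10 fell and 1 rose with INDY (median log2 fold change -0.31). With harmine 6 fell and 1 rose (median -0.05). Of all tested genes, 33.4% fell and 33.2% rose with INDY, and 22.8% fell and 24.9% rose with harmine. The largest falls with INDY were in LARS1, IARS1 and VARS1, whose enzymes charge leucine, isoleucine and valine. LARS1 was at 125, 151, 110 and 144 CPM with INDY, against 265, 266, 275 and 270 CPM with DMSO. Harmine libraries held 252, 241, 251 and 245 CPM, against 246, 260, 269 and 247 CPM with water. All INDY libraries were far below the DMSO libraries, whereas harmine and water overlapped (log2 -1.02 ± 0.07, adjusted p = 7.42e-11, and -0.05 ± 0.06, adjusted p = 0.561).

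IARS1 was at 183, 218, 154 and 200 CPM with INDY, against 360, 352, 372 and 368 CPM with DMSO. Harmine libraries held 359, 365, 364 and 359 CPM, against 357, 360, 357 and 357 CPM with water. It fell 1.92-fold with INDY (log2 -0.94 ± 0.07, adjusted p = 2e-10), and the log2 fold change with harmine was 0.02 ± 0.06 (adjusted p = 0.845). VARS1 was at 151, 165, 137 and 156 CPM with INDY, against 285, 269, 270 and 259 CPM with DMSO. Under harmine its values were 297, 305, 310 and 316 CPM, against 299, 302, 299 and 326 CPM with water. The INDY values were again apart and the harmine values overlapped (log2 -0.83 ± 0.05, adjusted p = 7.96e-12, and 0.002 ± 0.04, adjusted p = 0.972). For LARS1, IARS1 and VARS1 the effects of harmine and INDY differed by 0.98, 0.96 and 0.83 on the log2 scale (adjusted p = 3.71e-08, 4.2e-08 and 2.36e-09).

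WARS1 and AARS1 changed with harmine and not with INDY. WARS1, which charges tryptophan and is also known as an interferon-induced gene, was at 62.6, 66.0, 63.1 and 62.4 CPM with harmine, against 101, 94.4, 92.1 and 107 CPM with water. With INDY it was at 84.0, 84.0, 87.1 and 79.5 CPM, against 92.1, 87.1, 90.8 and 85.5 CPM with DMSO. It fell with harmine (log2 -0.63 ± 0.04, adjusted p = 5.31e-10), the value with INDY did not pass (-0.09 ± 0.04, adjusted p = 0.0715), and the effects differed (adjusted p = 2.95e-07).

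AARS1, which charges alanine, was at 168, 179, 178 and 178 CPM with harmine, against 139, 140, 138 and 139 CPM with water. It rose with harmine (log2 0.34 ± 0.06, adjusted p = 5.81e-05). With INDY it was at 130, 156, 116 and 143 CPM, against 137, 138, 141 and 138 CPM with DMSO, so that INDY replicates 2 and 4 lay above and replicates 1 and 3 below the DMSO libraries. The log2 fold change with INDY was -0.02 ± 0.06 over all 4 replicates (adjusted p = 0.723). It was 0.12 without INDY replicates 1 and 3 (adjusted p = 0.005) and -0.17 without INDY replicates 2 and 4, and both of these passed in opposite directions.

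SARS1, the serine enzyme, was the only synthetase among these 13 that rose with INDY, to 292 ± 10.99 CPM against 230 ± 2.55 CPM with DMSO (log2 0.34, adjusted p = 1.37e-09). CARS1, EPRS1, GARS1, NARS1 and TARS1, for cysteine, glutamate with proline, glycine, asparagine and threonine, fell with both compounds. Their log2 fold changes ran from -0.16 (NARS1) to -0.34 (CARS1) with harmine and from -0.11 (NARS1) to -0.54 (TARS1) with INDY. For GARS1 these were -0.23 ± 0.04 with each compound, and the call of NARS1 with INDY was lost in 11 of the settings. Without INDY replicates 1 and 3 the values with INDY were -0.14 for GARS1, which passed, and -0.05 for NARS1, which did not. MARS1 and YARS1, for methionine and tyrosine, fell with INDY alone (log2 -0.31 and -0.44, adjusted p = 4.33e-06 and 2.04e-05), YARS1 by -0.28 without INDY replicates 1 and 3, which still passed.

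Tested directly, the effects of the compounds differed in 29 of the 41 members. In 18 the effect of harmine was above that of INDY (43.9%, against 28.1% of all genes) and in 11 it was below (26.8%, against 26.4%). Among the synthesis genes 6 of 8 differed, all with the harmine effect above the INDY effect, and among the synthetases 7 of 13 did so and 3 differed the other way. Among the regulators the harmine effect was below the INDY effect in 5 of 9 and above it in 1. Of the 41 members 5 passed in opposite directions with the compounds. These were SESN2, PYCR1 and SLC1A4, up with harmine but down with INDY (6.26% of all genes), and ATF4 and DDIT3, lower with harmine and higher with INDY (4.55% of all genes). In all 5 the difference between the effects passed (adjusted p = 4.54e-06 or less). Opposite calls thus made up 12.2% of the members and 10.8% of all genes. PPP1R15A was the only member called higher with both (12.1% of all genes were), and 8 members, or 19.5%, were called lower with both, against 12% of all genes (ATF5, CHAC1, PHGDH, CARS1, EPRS1, GARS1, NARS1 and TARS1). TRIB3, STC2 and SLC7A1 (7.32% of the members) were called with neither, against 20.6% of all genes.

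Members with the response element core moved in both directions. With INDY, 7 of the 11 members that hold TGATGNAA in the searched promoter window fell and 2 rose (ATF3 and SLC3A2). Of the 23 with a promoter entry but no match in that window, 12 fell and 6 rose. Sequence outside the window was not searched. Median log2 fold changes were -0.19 with the core and -0.24 without it. Members without a promoter entry are in neither median. Of these, SHMT2, LARS1, VARS1, PSPH, PYCR1 and YARS1 fell with INDY (log2 -1.13 to -0.44) and NUPR1 rose (0.70). With harmine 4 of 11 fell and 1 rose, and 8 of 23 fell and 4 rose (medians -0.07 and -0.05). ASNS and SLC3A2, which both hold the core, moved by similar amounts in opposite directions with INDY.

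INDY libraries varied among themselves in these genes. The median coefficient of variation of the members among the 4 INDY libraries was 10.2%, against 2.43% among DMSO libraries. Over the 15324 genes that averaged at least 1 CPM with water it was 6.72% with INDY and 3.94% with DMSO. These genes were chosen by their level with water alone, so some may be lower with INDY. With harmine it was 3.33% for the members, against 3.77% with water. In 27 members (65.9%) INDY replicates 2 and 4 were both above replicates 1 and 3, a pattern found in 27.6% of all genes, and in 6 members (14.6%) they were both below, again against 27.6%. The 6 were ATF3, NUPR1, PPP1R15A, SLC3A2, SLC38A2 and WARS1, the first 4 of which rose with INDY. By role, the synthesis genes stood at median log2 levels of -0.89, -0.48, -1.09 and -0.63 relative to DMSO in INDY replicates 1 to 4, and the synthetases at -0.38, -0.17, -0.46 and -0.26. Every INDY library was thus below 0 in both groups, with replicates 3 and 1 lowest. Whether a property of the cultures or of the libraries goes with this split was not tested. Called members were 10 higher and 22 lower without replicates 1 and 3, and 9 higher and 28 lower without replicates 2 and 4.

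**Figure D4:**
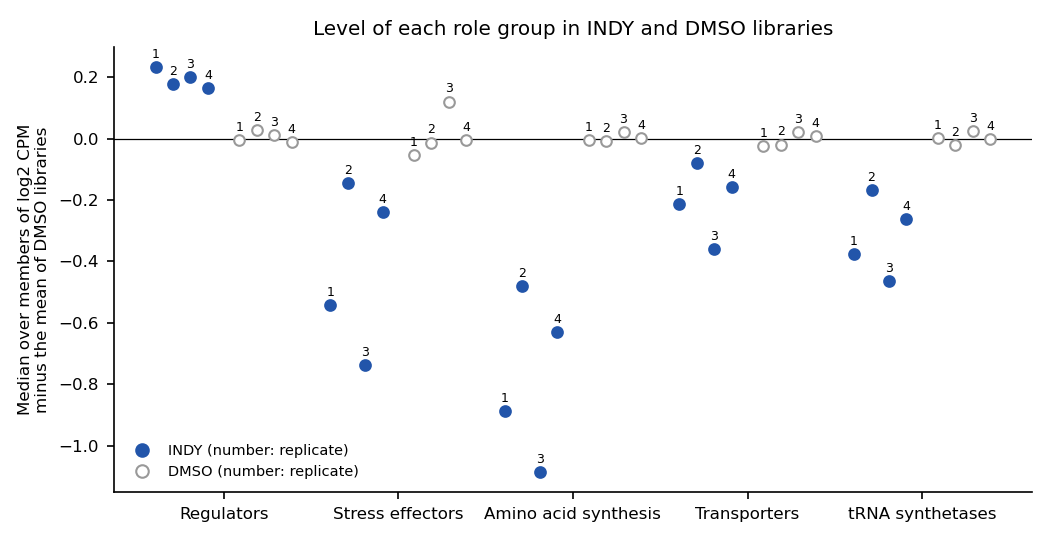
Level of each role group in the 4 INDY and 4 DMSO libraries, taken as log2 CPM relative to the DMSO average and summarised by the median member, with INDY left of DMSO and the replicate number above each point. Synthesis genes lie at -0.48 to -1.09 in INDY libraries and the synthetases at -0.17 to -0.46, with replicates 3 and 1 the lowest in both, while regulators lie at 0.17 to 0.23.

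Between DMSO and water 2 members were higher with DMSO, DDIT3 (log2 0.24, adjusted p = 0.0057) and VLDLR (log2 0.29, adjusted p = 0.00325), and 0 were lower by edgeR at an adjusted p under 0.01, beside 1.58% and 2.71% of all genes. At an unadjusted p under 0.05 edgeR gave 11 higher and 5 lower, and for lower members DESeq2 called 1 (VARS1) and limma 0. DMSO and water libraries nonetheless did not overlap in 25 members (61.0%, against 19.9% of all genes). The calls of DDIT3 and VLDLR were lost in 8 and 4 of the settings, in both cases without water replicates 1 and 4, where the log2 fold changes were 0.21 and 0.29. SLC38A2 was at 485, 404, 411 and 412 CPM with DMSO, against the water values above (log2 -0.40, adjusted p = 0.0168). Gaps of similar or larger size that did not pass were seen in DDIT4 (log2 0.42, adjusted p = 0.0307), ASNS (0.38, adjusted p = 0.0601) and STC2 (-0.91, adjusted p = 0.0334). In these genes DMSO and water libraries did not overlap. DDIT4 averaged 34.2 CPM with DMSO and 25.6 CPM with water, beside 36.5 CPM with harmine.

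Genes around the members were taken from lists by role. The counts of all these lists, here and below, stand beside the shares of all tested genes. Those were 33.2% higher and 33.4% lower with INDY, and 24.9% higher and 22.8% lower with harmine. Of 10 other cytosolic synthetases, 2 rose and 6 fell with INDY and 4 rose and 3 fell with harmine. FARSB, a phenylalanine enzyme subunit, fell with INDY (log2 -0.53) and rose with harmine (0.33), while its partner FARSA fell with both (-0.27 and -0.39). QARS1, for glutamine, fell with INDY (-0.36) and rose with harmine (0.36), and KARS1, for lysine, fell with INDY (-0.39). Of 17 mitochondrial synthetases, 7 rose and 7 fell with INDY and 8 rose and 5 fell with harmine. HARS2, for histidine, had the largest rise of that list with INDY (log2 0.85 ± 0.04, adjusted p = 3.29e-13).

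Of 11 further one-carbon and folate genes, 8 fell and 1 rose with INDY, and 3 rose and 2 fell with harmine. With INDY the mitochondrial enzymes ALDH1L2 and MTHFD1L had log2 fold changes of -1.74 and -1.22 (adjusted p = 8.4e-08 and 2.05e-12). Of 16 other amino acid synthesis and breakdown genes, 10 fell and 2 rose with INDY, and 6 rose and 4 fell with harmine. PRODH, which breaks down proline, fell with INDY (-2.08 ± 0.21, adjusted p = 3.14e-08) and rose with harmine (1.41 ± 0.15, adjusted p = 2.29e-07). Its level was low, with means of 0.149 CPM with INDY, 0.647 with DMSO, 1.58 with harmine and 0.593 with water. ASS1 and ASL, the enzymes of arginine synthesis from citrulline, fell with INDY (-1.35 and -0.996), and ASS1 also fell with harmine (-0.52).

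Of 16 other amino acid transporters, 11 fell and 3 rose with INDY, and 8 fell and 3 rose with harmine. SLC7A11, the cystine importer, fell with both (log2 -1.65 with INDY, adjusted p = 1.29e-08, and -1.01 with harmine, adjusted p = 1.12e-05). SLC1A1, a glutamate and cysteine importer, rose with both (1.799 with INDY, adjusted p = 4.42e-11, and 0.60 with harmine, adjusted p = 0.000304). Of 15 genes for eIF2, its exchange factor, its kinases and their regulators, 5 rose and 4 fell with each compound. Of all tested genes, 33.2% rose and 33.4% fell with INDY, and 24.9% rose and 22.8% fell with harmine. EIF2AK4, which encodes GCN2, rose with harmine (0.44, adjusted p = 3.17e-07) and fell with INDY (-0.37, adjusted p = 1.5e-06). With INDY EIF2B2 and EIF2B5, subunits of the exchange factor, rose (0.80 and 0.70) while EIF2S3, the gamma subunit of eIF2, fell (-0.86), and of these EIF2B2 also rose with harmine (0.30).

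Of 15 tested genes in a list of other ATF4 targets, 8 fell and 4 rose with INDY, and 6 fell and 2 rose with harmine. XPOT, the tRNA export factor, fell with both (log2 -1.13 with INDY and -0.97 with harmine). Of 14 endoplasmic reticulum stress genes, which are chaperones and their partners together with the sensors and factors XBP1, ERN1 and ATF6, 12 fell and 1 rose with INDY, and 10 fell and 1 rose with harmine. HSPA5 (BiP) fell with both (log2 -0.98 with INDY and -0.81 with harmine, adjusted p = 3.17e-16 and 4e-14). CRELD2 fell with INDY (-1.51, adjusted p = 1.85e-15) and had a log2 fold change of -0.13 with harmine (adjusted p = 0.0151). Of 10 control genes, 2 rose and 6 fell with INDY and 5 rose and 1 fell with harmine. GUSB fell with INDY (-0.60) and rose with harmine (0.15), and B2M fell with both (-0.34 and -0.36).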

How the data were processed

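RNA of U2OS cells was measured by stranded poly(A) RNA-seq in 16 libraries, grouped by the sample labels. The deposited table gives estimated counts for each gene. The authors obtained them with Salmon 1.1 (GENCODE 37 transcripts, GRCh38 genome as decoy, GC and sequence bias corrections) and summed them to genes with tximport. In each library 27.7 to 31.9% of these estimated counts were not whole, and they were rounded here. Reads shared with gene copies are split by that estimation: PSAT1P3 held 5.77% of the PSAT1 total and ASNSP1 1.62% of the ASNS total.

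Genes passing filterByExpr were scaled by TMM and tested with edgeR 4.0.16 (glmQLFit and glmQLFTest, R 4.3.3), all 4 groups being fitted together, with Benjamini-Hochberg adjustment over the 20446 genes and a threshold of 0.01. Standard errors are of the edgeR log2 fold change. The study's methods name edgeR 3.28.1 and do not name its test. The code was tested on simulated counts.

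All members were reported. Values per library were given for those with an absolute log2 fold change of at least 0.8 with either compound, for those called in opposite directions and for ATF4. DDIT3 enters by the opposite calls, and DDIT4, SLC7A5, SLC38A2, AARS1 and WARS1 were added after their values were seen. Of other lists at most 3 genes per compound were named. Some genes that this rule names are not reported here. The members, lists and motifs were chosen with earlier results of these data known. Coordinates are from GENCODE 44 on GRCh38, with SESN2, CARS1 and VARS1 located by symbol. Alternatives were DESeq2 1.42.0, limma 3.58.1 (voom), upper-quartile or no scaling factors, other filters and thresholds, only the 8 libraries of one compound and its vehicle, a replicate block and each library left out. Leaving out pairs of libraries was chosen after seeing the data.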

Additional observations from a re-analysis of the deposited data

Results flagged for a closer look

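In 16 of the 164 combinations of a member and a group, 1 library lay far from the other 3 by a Dixon test at 95%, which chance alone gives in about 1 of 20 groups. Harmine replicate 1 was low in SHMT2 (275 CPM, the others 293 to 294), AARS1 (168, the others 178 to 179), GARS1 (197, the others 213 to 215) and YARS1 (228, the others 247 or more). Harmine replicate 3 was low in ATF3 (16.7 CPM, the others 19.1 to 19.3). Water replicate 4 was low in CEBPB (32.7 CPM) and MTHFD2 (186 CPM) and high in VARS1 (326 CPM, the others 299 to 302). INDY replicate 3 was high in ATF4 (549 CPM, the others 515 to 517), and INDY replicate 4 was low in VLDLR (18.6 CPM). DMSO replicate 1 was low in SESN2 (71.9 CPM) and ASNS (106 CPM, the others 119) and high in SLC38A2 (485 CPM, the others 404 to 412). DMSO replicate 3 was low in NUPR1 (35.2 CPM) and high in TRIB3 (62.0 CPM) and AARS1 (141 CPM). In AARS1 and GARS1 with harmine, and in ATF4, VLDLR, SESN2, ASNS and NUPR1, the library concerned still lay outside the range of the group it was compared with. The flagged ATF3, CEBPB and VARS1 libraries also did, but the other libraries of their groups lay within that range.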

How the results depend on the processing

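Apart from other thresholds, 27 settings were run, and not all of them applied to every comparison. Counting other thresholds, 28 settings bore on INDY over DMSO, 27 on harmine over water, 25 on the difference and 26 on DMSO over water. The difference was assessed neither with pairs of libraries left out nor in the 8 libraries of a single compound. Thresholds aside, 31 of the 34 members called with INDY stayed called in the same direction in every setting that applied. So did 14 of the 18 called with harmine and 28 of the 29 whose effects differed. The exceptions were MTHFD2, NARS1 and SLC7A5 with INDY, DDIT4, PPP1R15A, PYCR1 and SLC1A4 with harmine, and CARS1 for the difference, and both members called between DMSO and water lost their calls in some settings. No called member changed direction. The causes were not tested.

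Leaving out 1 library gave 4 to 6 members higher and 12 to 14 lower with harmine, 9 higher and 22 to 26 lower with INDY, 18 to 21 and 10 to 11 for the difference, and 0 to 5 and 0 to 2 between DMSO and water. All genes called were 8761 to 10344, 13037 to 13785, 10584 to 11306 and 329 to 1357 in the same order. Members higher with harmine were 3 without scaling factors and 2 without water replicates 1 and 4, which also left 0 members higher and 121 of all genes called (877 with all libraries) between DMSO and water. At a fold change of at least 1.5, counts higher and lower were 0 and 4 with harmine, 3 and 11 with INDY, 10 and 5 for the difference and 0 higher between DMSO and water, among 3335, 6889, 5957 and 161 genes called. Between DMSO and water, DESeq2 called 1 member lower and 1581 genes, no filter gave 4 members higher and 2 lower, and an adjusted p under 0.05 gave 5 higher, 5 lower and 2384 genes.

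Some log2 fold changes near 0, which had not passed, changed sign. VARS1 with harmine (0.002) was -0.0081 by DESeq2, -0.0138 with upper-quartile factors, -0.0433 without scaling factors, -0.0175 with no filter, -0.0032 with at least 10 counts in every library and -0.0106 in the 8 libraries of that comparison. With harmine IARS1 was -0.0293 and SARS1 -0.0143 without scaling factors, IARS1 was -0.0037 with no filter, and NUPR1 was 0.0015 by limma voom and 0.0768 without water replicates 1 and 4. SLC38A2 with INDY was -0.0019 without scaling factors. Without INDY replicates 1 and 3, TRIB3 was 0.0538, SLC7A1 0.029, SLC38A2 -0.1285 and AARS1 0.1164, and AARS1 alone passed. With 1 library left out, VARS1 ranged from -0.0255 to 0.033 with harmine, IARS1 from -0.0027 to 0.0169, NUPR1 from -0.0522 to 0.035, SLC7A5 from -0.0628 to 0.0251, SLC3A2 from -0.0404 to 0.0135 and STC2 from -0.0621 to 0.3198. With INDY SLC38A2 ranged from -0.0381 to 0.0893, SLC7A1 from -0.0748 to 0.0035 and AARS1 from -0.0885 to 0.0519.

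Harmine and water libraries with the same replicate number did not deviate together (correlations -0.0527 to -0.0066, best with their own number in 0 of 4). For INDY with DMSO the correlations were also small (-0.0193 to 0.0868), but were best with their own number in 3 of 4. With the replicate number as a block, members higher and lower were 5 and 12 with harmine, 9 and 24 with INDY, 18 and 11 for the difference and 2 and 0 between DMSO and water. The counts stand for 4 libraries per group at these depths, and STC2, under 1 CPM throughout, was measured least precisely.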
